A study of Mus musculus with 12 samples.

Results

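The genes described here are Atf4 and 7 genes of amino acid synthesis and uptake, Asns, Pycr1, Slc7a11, Slc7a5, Slc3a2, Slc3a1 and Slc1a5, in fetal mouse hearts with and without the mitochondrial citrate carrier Slc25a1. They were chosen by symbol and make up 8 of the 768 probes measured. All 8 passed the filter on low values, a mean of at least 20 counts over the hearts, and so belong to the 695 genes tested. RNA was measured with NanoString nCounter, which counts colour-coded probes on single RNA molecules without amplification. The hearts were taken at E17.5, late gestation, from litters of parents that were both heterozygous for the Slc25a1 knockout. The groups are 4 wild-type hearts (WT, both copies of Slc25a1 intact), 4 heterozygous hearts (HET, 1 copy disrupted) and 4 homozygous knockout hearts (KO, both copies disrupted), each from its own embryo. Nothing in the labels restricts the knockout to the heart, and they give no litter, sex, strain or assay run, so none of these could be tested.

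ATF4 is the main transcription factor of the integrated stress response, the program that cells switch on when amino acids run short, when unfolded protein builds up or when mitochondria fail. Its amount is set largely by translation of its mRNA, so an Atf4 RNA level does not report the level of the protein. ATF4 binds C/EBP-ATF response elements and raises genes that make or import amino acids. Asns makes asparagine from aspartate and glutamine, and Pycr1 completes proline synthesis in mitochondria. Slc7a11 (xCT) exchanges glutamate for cystine, Slc7a5 (LAT1) exchanges large neutral amino acids, and both work only in a pair with the heavy chain encoded by Slc3a2. Slc3a1 (rBAT) is the heavy chain of the Slc7a9 transporter of kidney and intestine, and Slc1a5 (ASCT2) carries glutamine and other small neutral amino acids.

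The pattern TGATGNAA is a core of the C/EBP-ATF response element. It was searched on both strands in the 250 bases before each RefSeq gene start of assembly GRCm38.p6, where 1134 of 32851 windows, 3.45%, held it. A window was given for 6 of the 8 genes, all but Slc7a5 and Slc1a5. Asns, Pycr1 and Slc7a11 held a match, and the windows of Atf4, Slc3a2 and Slc3a1 held none. The stretches with the matches are shown because they place the 2 biosynthetic enzymes and the cystine carrier beside each other at the level of sequence. Each is written 5′ to 3′ along the minus strand of the chromosome, on which these genes lie, with matches to the pattern in capitals.
Asns, chr6:7693210-7693262: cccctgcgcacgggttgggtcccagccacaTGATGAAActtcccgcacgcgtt
Pycr1, chr11:120643814-120643881: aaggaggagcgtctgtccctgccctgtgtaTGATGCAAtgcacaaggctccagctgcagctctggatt
Slc7a11, chr3:50443623-50443709: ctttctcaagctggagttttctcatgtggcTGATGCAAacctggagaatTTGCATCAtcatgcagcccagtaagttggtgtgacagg

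The match began 23 bases before the start of Asns and 103 bases before that of Pycr1. Slc7a11 held 2 matches, at 66 bases and, on the opposite strand, at 47 bases before its start, and only 13 of all 32851 windows, 0.0396%, held 2 or more. These are matches of letters in a window and show nothing about binding in these hearts.

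The deposited values were ratios to the probe for Tbp, a general transcription factor, in the same heart. They returned to whole probe counts when multiplied by a Tbp count of 276 to 433, and the totals were 1285512 to 1565516 counts per heart. The Tbp count carries a counting error of 4.81% to 6.02% that all ratios of a heart share, so each comparison was made on the ratios and again after each heart was centred on its panel median. On the ratios the median of all 695 genes already lay at −0.13 (log2) in KO against WT, −0.07 in HET against WT and −0.08 in KO against HET. Slc25a1 followed the labels, with ratios of 0.605 to 0.622 in WT, 0.306 to 0.392 in HET and 0.0819 to 0.118 in KO hearts. No probe of the panel was among the 15 cardiomyocyte markers looked for, so the tissue label could not be checked by them. The summed ratio of 4 muscle-type metabolic genes (Eno3, Ldhb, Pfkm and Pgam2) was 64.5 to 126 in the 12 hearts. With no other tissue to set it against, it does not check the label either.

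Atf4 was abundant and among the steadiest genes of the panel. Its ratio to Tbp in WT replicates 1 to 4 was 8.11, 7.16, 7.05 and 7.92. In HET hearts it was 7.27, 7.01, 6.75 and 6.45, and in KO hearts 5.92, 6.75, 6.40 and 7.46. The genotypes overlapped, with means of 7.56 ± 0.536 in WT, 6.87 ± 0.352 in HET and 6.63 ± 0.650 in KO (SD, n = 4 each). In limma, with Benjamini-Hochberg adjustment over all 695 genes, the difference of KO from WT was −0.19 on the log2 scale (SE 0.108, 95% interval −0.42 to 0.04, adjusted p = 0.381), which is close to the shift of the panel median. After median centring it was −0.06 (interval −0.18 to 0.06, adjusted p = 0.574 in limma). The counts behind these values were 1997 to 2791 per heart, a counting error of 1.89% to 2.24%. The SD of centred Atf4 over the 12 hearts was 0.067 on the log2 scale, and 7.19% of the tested genes had a smaller one. The probes count Atf4 RNA and do not bear on its translation.

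**Figure D1:**
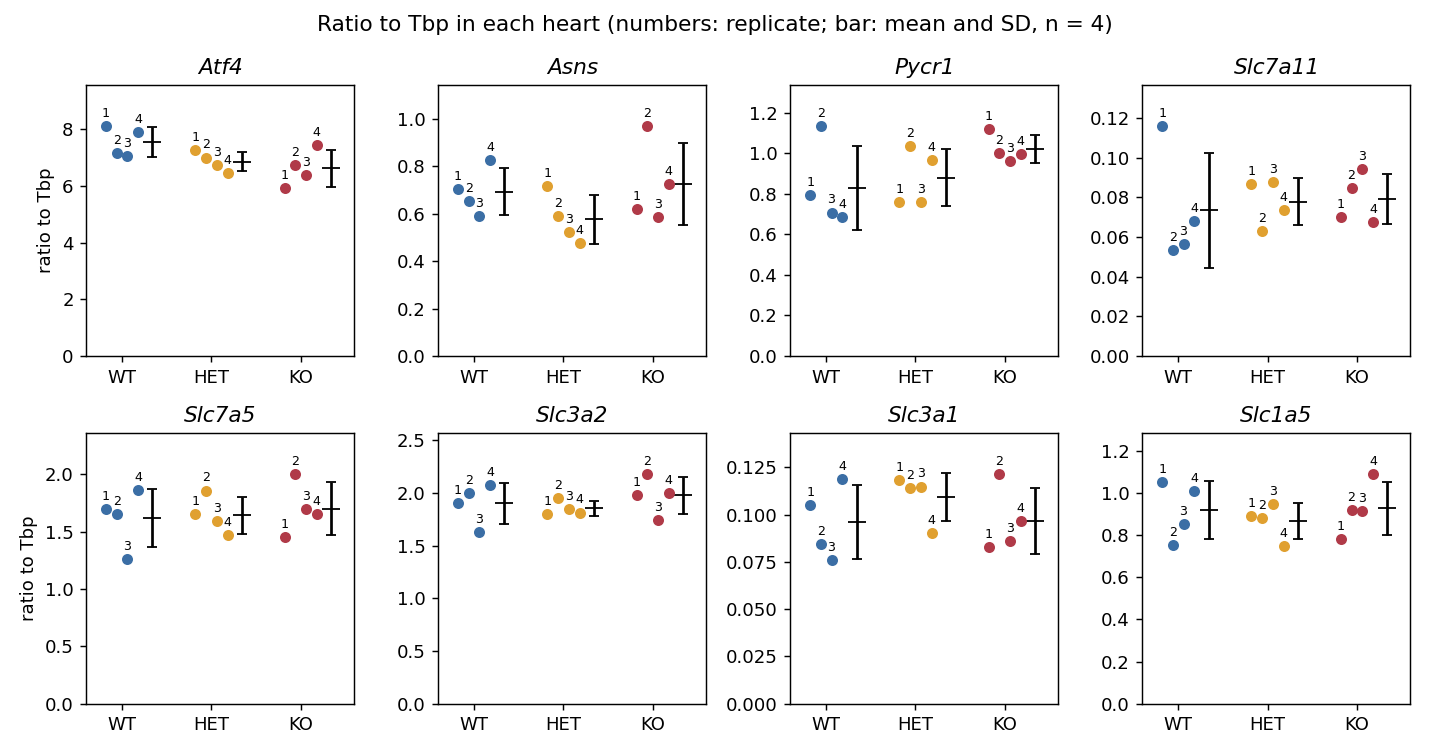
Ratio to Tbp of each of the 8 genes (vertical axis from 0, no unit) in the 4 WT, 4 HET and 4 KO hearts, with points numbered by replicate and bars for the mean and SD of 4 hearts. The hearts of the 3 genotypes overlap for every gene on this scale, and the KO hearts of Pycr1 sit between 0.960 and 1.12.

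None of the 8 genes passed the test in any of the 3 comparisons, on either scaling. On the ratios to Tbp, limma called 0 of 8 in KO against WT, where 0.144% of all genes were called (Slc25a1 alone). It called 0 of 8 in HET against WT, against 0.144% of all genes (again Slc25a1), and 0 of 8 in KO against HET, against 0.432% of all genes (Slc25a1, Phgdh and Lepr). An unadjusted p under 0.05 in limma was also reached by 0 of 8 in each, against 11.1%, 3.17% and 3.88% of all genes, in that order. After median centring 0 of 8 were called, against 0.432%, 0.0% and 0.288% of all genes, in the same order.

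Most of the 8 genes had a higher mean in KO than in WT, though none was called. In KO against WT, 7 of 8 had a higher mean in KO, all but Atf4, on both scalings. Over all tested genes that share was 25.2% on the ratios and 50.2% after centring. The median difference of the 8 was 0.05 (log2) on the ratios and 0.18 after centring, beside medians of −0.13 and 0.00 for all genes. On the ratios the count rested on single hearts: it was 2 of 8 without WT replicate 3 and 4 of 8 without KO replicate 2. After centring it was 7 of 8 with each heart left out in turn. After centring, 2 of the 8, Pycr1 and Slc7a5, had an unadjusted p under 0.05 in limma, as did 18.6% of all genes. In HET against WT, 4 of 8 were higher on the ratios and 6 of 8 after centring, with median differences of −0.00 and 0.08, beside shares of 32.7% and 52.7% over all genes. In KO against HET, 6 of 8 were higher on both scalings, with medians of 0.07 and 0.12, beside shares of 28.6% and 42.3%. The 3 comparisons share hearts, KO against WT and HET against WT the same WT hearts, so they do not repeat each other independently.

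**Figure D2:**
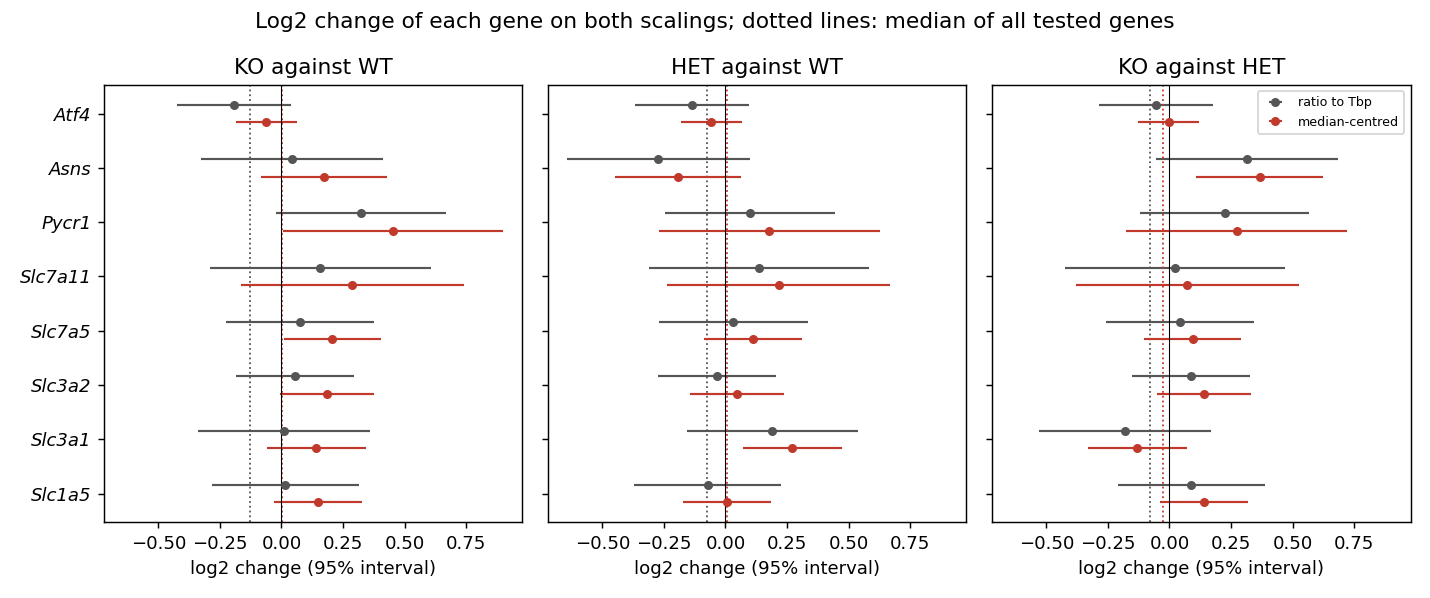
Log2 difference between genotype means (horizontal axis) with its 95% interval from limma for each of the 8 genes, on the ratios to Tbp (grey) and after median centring (red), one panel for each comparison of 4 with 4 hearts. Dotted lines mark the median of all 695 genes, which lies at −0.13 on the ratios in KO against WT, and all but 4 of the 48 intervals include 0.

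Asns, the asparagine synthetase, was lowest in HET hearts and varied most among KO hearts. Its ratios in WT were 0.703, 0.654, 0.592 and 0.827. In HET they were 0.715, 0.589, 0.524 and 0.478, and in KO 0.618, 0.969, 0.585 and 0.726. KO replicate 2 was the highest of all 12 hearts, with 343 counts where the others had 155 to 246, and the genotypes overlapped. The means were 0.694 ± 0.0996 in WT, 0.576 ± 0.103 in HET and 0.724 ± 0.174 in KO (SD, n = 4 each). The log2 difference in limma was 0.04 in KO against WT (SE 0.173, adjusted p = 0.881), −0.27 in HET against WT (adjusted p = 0.871) and 0.32 in KO against HET (adjusted p = 0.937). After centring, KO against HET was 0.37 (interval 0.11 to 0.62). Its unadjusted p in limma was 0.00934 and its adjusted p 0.4996, and 8.35% of all genes had an unadjusted p under 0.05. By centred values 3 of the 4 KO hearts lay above all HET hearts, with a two-sided exact permutation p of 0.0571. Without KO replicate 2 the centred difference was 0.25, and in KO against WT the sign on the ratios turned, to −0.11.

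Pycr1, the last enzyme of proline synthesis, had the largest KO against WT difference of the 8. Its ratios in WT were 0.793, 1.13, 0.707 and 0.687. In HET they were 0.760, 1.03, 0.757 and 0.968, and in KO 1.12, 1.00, 0.960 and 0.997. The KO hearts were all high and close together, while WT and HET each held both low and high hearts, and WT replicate 2 was the highest of the 12. The means were 0.830 ± 0.207 in WT, 0.879 ± 0.142 in HET and 1.02 ± 0.0685 in KO (SD, n = 4 each). In limma KO against WT was 0.32 on the log2 scale (SE 0.161, interval −0.02 to 0.67, adjusted p = 0.371), with an exact two-sided permutation p of 0.143, where 4 against 4 hearts can reach 0.0286. After centring it was 0.45 (interval 0.0045 to 0.90, adjusted p = 0.267 in limma). HET against WT was 0.10 and KO against HET 0.22 on the ratios, with adjusted p of 0.871 and 0.937 in limma.

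Pycr1 varied together with genes of the heart's stroma, its connective tissue. These were Cyp1b1, Itga11, Pdgfrb, Thbs2 and 3 collagen VI chains, Col6a1, Col6a2 and Col6a3, a list written in an earlier analysis after these data had been seen. Their centred log2 values were averaged for each heart, relative to the WT mean, as a stromal score. In WT hearts it was −0.17, 0.67, 0.03 and −0.53. In HET hearts it was −0.10, 0.33, −0.04 and 0.87, and in KO hearts 0.67, 0.03, 0.28 and −0.14. The summed ratio of the 7 genes was 19.5 to 33.0 in WT, 21.5 to 33.2 in HET and 22.4 to 27.9 in KO, and none of them was at 0. All 7 had higher centred means in KO than in WT, with a median of 0.24 (log2), beside 50.2% of all genes. All 7 were also higher in HET than in WT, with a median of 0.25, beside 52.7%. None was called in either comparison, beside 0.432% and 0.0% of all genes. In KO against HET 2 of the 7 were higher after centring, beside 42.3%. On the ratios 4 of the 7 were higher in KO than in WT, beside 25.2%. In such whole hearts, fewer cells of a type and less RNA per cell cannot be told apart.

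The stromal score comes from a list written after these data had been seen. It tracks Pycr1 closely, with an r of 0.97 when genotype means are taken out. Without the score, the centred limma fit did not call Pycr1 (adjusted p = 0.267 for KO against WT and 0.676 against HET). With the score as a covariate in that fit, Pycr1 was called higher in KO hearts. The difference was 0.31 on the log2 scale against WT (SE 0.0623, adjusted p = 0.0292) and 0.31 against HET (SE 0.0608, adjusted p = 0.0178), and −0.01 in HET against WT (adjusted p = 0.984). It was the only one of the 8 genes called in that fit, which called 4.89% of all genes in KO against WT and 5.18% in KO against HET. In the plot of hearts by pairs of measures, each of the 4 KO hearts lies above the WT or HET heart nearest to it in stromal score. On the ratios to Tbp the same covariate gave 0.27 against WT (adjusted p = 0.109) and 0.29 against HET (adjusted p = 0.104), past no threshold. The call against WT was also lost without any one of WT replicates 1, 3 and 4 or KO replicates 2 and 4, with adjusted p of 0.0581 to 0.0895. The call against HET was lost without any one of HET replicates 1 and 4 or KO replicates 2 and 4, with adjusted p of 0.0501 to 0.0654. The 4 muscle-type genes were all lower in KO than in WT after centring, beside 49.8% of all genes. Their median was −0.23 on the log2 scale, with adjusted p of 0.240 to 0.368 in limma. All 4 were also lower in HET than in WT, with a median of −0.06, and in KO than in HET, with −0.16. The part of these genes in the Pycr1 difference was not tested.

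Slc7a11, the cystine carrier, gave few counts. It had 32, 19, 20 and 20 counts in WT, 25, 21, 26 and 32 in HET and 28, 30, 33 and 21 in KO hearts. At 19 counts the exact Poisson 95% interval runs from 11.4 to 29.7, and it covers counting error only. The ratio was 0.0735 ± 0.0290 in WT, 0.0779 ± 0.0117 in HET and 0.0793 ± 0.0126 in KO (SD, n = 4 each), with 1 high WT heart, replicate 1 at 0.116. In limma KO against WT was 0.16 on the log2 scale (SE 0.209, interval −0.29 to 0.61, adjusted p = 0.674). No background was subtracted here, and Slc25a1 in KO hearts, the knocked-out gene, still read 26 to 44 counts, while Slc7a11 read 19 to 33 over all hearts. The lowest probe of each heart read 5 to 9 counts. Whether the Slc25a1 counts in KO hearts are background was not tested.

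Slc7a5, the light chain that imports leucine and other large neutral amino acids, differed little between genotypes on the ratios. They were 1.70, 1.65, 1.26 and 1.86 in WT, 1.66, 1.86, 1.59 and 1.47 in HET and 1.45, 2.00, 1.69 and 1.66 in KO hearts. The lowest heart was a WT heart, replicate 3, and the highest a KO heart, replicate 2. KO against WT was 0.08 on the log2 scale in limma (SE 0.141, adjusted p = 0.757). After centring it was 0.21 (interval 0.01 to 0.40, unadjusted p = 0.0418 and adjusted p = 0.255 in limma), and 3 of 4 KO hearts lay above all WT hearts. Without WT replicate 3 the difference on the ratios was −0.04, and without KO replicate 2 it was −0.0057.

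Slc3a2, the heavy chain that both Slc7a5 and Slc7a11 need at the cell surface, was the steadiest transporter gene on the ratios. They were 1.91, 2.00, 1.63 and 2.08 in WT, 1.80, 1.96, 1.85 and 1.82 in HET and 1.98, 2.18, 1.75 and 2.00 in KO hearts. The largest ratio was 1.34 times the smallest. KO against WT was 0.05 on the log2 scale (SE 0.112, interval −0.19 to 0.29, adjusted p = 0.777 in limma) and 0.19 after centring (interval −0.01 to 0.38, adjusted p = 0.268 in limma). The means were 1.90 ± 0.195 in WT, 1.85 ± 0.0702 in HET and 1.98 ± 0.179 in KO (SD, n = 4 each).

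Slc3a1, the heavy chain known from kidney and intestine, read 27 to 43 counts, within the range of Slc25a1 in KO hearts, 26 to 44. Its ratios were 0.105, 0.0845, 0.0761 and 0.119 in WT, 0.118, 0.114, 0.115 and 0.0901 in HET and 0.0829, 0.121, 0.0860 and 0.0968 in KO hearts. After centring, the 4 HET hearts lay above all WT hearts, and 3.17% of all genes separated in that direction. No other of the 8 genes separated 2 genotypes on either scaling. Of all genes, 3.31%, 1.01% and 2.45% did so in either direction on the ratios, and 8.92%, 4.46% and 4.03% after centring, for KO from WT, HET from WT and KO from HET in turn. The centred HET against WT difference was 0.27 (interval 0.07 to 0.47, unadjusted p = 0.0128 and adjusted p = 0.667 in limma). On the ratios it was 0.19 (adjusted p = 0.871 in limma) with overlapping hearts. Its partner light chain Slc7a9 had 9 to 22 counts in the 12 hearts and was not tested.

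Slc1a5, the glutamine transporter, overlapped between all 3 genotypes. The mean ratio was 0.917 ± 0.138 in WT, 0.868 ± 0.0838 in HET and 0.927 ± 0.127 in KO (SD, n = 4 each), over single hearts of 0.751 to 1.09. KO against WT was 0.02 on the log2 scale in limma (SE 0.139, interval −0.28 to 0.31, adjusted p = 0.948). The interval for Slc1a5 after centring was −0.03 to 0.33.

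Across the 12 hearts, no correlation of the 7 genes with Atf4 passed the test after centring. Correlations were taken on centred log2 values, since on the ratios every gene shares the Tbp count of its heart. They were tested by two-sided permutation of the hearts with adjustment over 694 genes. Permutation p-values for correlations are those of Pearson r unless rho is named. Pearson r with Atf4 was −0.29 for Asns, 0.10 for Pycr1, −0.07 for Slc7a11, −0.39 for Slc7a5, −0.08 for Slc3a2, −0.68 for Slc3a1 and 0.12 for Slc1a5. None passed the adjusted threshold, nor did any other gene (0.0%), while 4.76% of all genes, Slc3a1 among them, had an unadjusted permutation p under 0.05. Slc3a1 had the lowest r of all 694 genes (permutation p = 0.0171 and adjusted p = 0.925 for r), with a Spearman rho of −0.71. Its r was −0.84 without the 2 hearts farthest in Atf4, WT replicate 3 and HET replicate 4. It was −0.48 without the 2 hearts farthest in Slc3a1, WT replicate 3 and KO replicate 2. On the ratios Slc1a5 had an r of 0.65 with Atf4 (adjusted permutation p = 0.0401), where 374 of the 694 genes passed and the median r was 0.66. The r of Slc3a1 was −0.65 with genotype means taken out but 0.43 on the ratios, and Slc3a1 has the few counts given above.

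The genes most like Atf4 over the hearts were Ldhc with r of 0.80, Nras with 0.78, Slc16a7 with 0.76, Txn1 with 0.75 and Kat6a with 0.69. Those least like it were Slc3a1, Ms4a2 with −0.67, Fcrlb with −0.62, Flt3 with −0.62 and Adh4 with −0.61. All 10 had an adjusted permutation p of 0.925. None of the 7 genes was among the 5 highest.

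**Figure D3:**
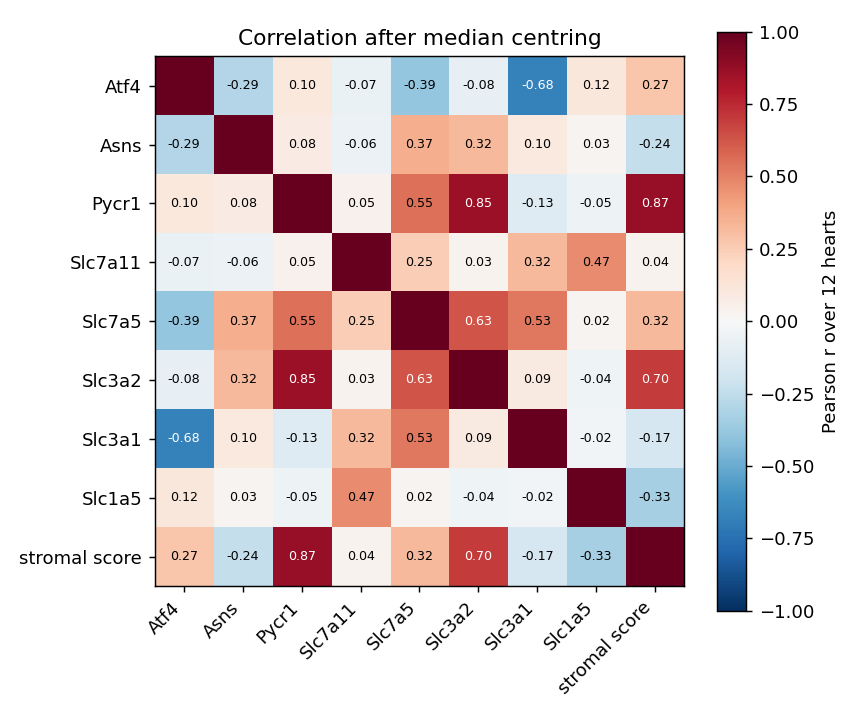
Pearson r over 12 hearts between each pair of the 8 genes and the stromal score, on median-centred log2 values (colour and number). The pair of Pycr1 with Slc3a2, at 0.85, is the highest of the 28 gene pairs, and the row of Atf4 holds no r above 0.12 with a gene.

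Among the 28 pairs of the 8 genes 18 had a positive r, with a median of 0.06, beside 51.8% positive and a median of 0.02 over all pairs of tested genes. On the ratios the medians were 0.41 and 0.38. Pycr1 and Slc3a2 gave the highest centred r, 0.85 (rho 0.83, adjusted permutation p = 0.00431 over 694 genes), and 25.8% of all genes passed that test with Pycr1. The r of Pycr1 with Slc3a2 was 0.79 with genotype means taken out, and 0.81 to 0.91 with each heart left out in turn. It was 0.89 without the 2 hearts farthest in Pycr1, and 0.39 on the ratios (adjusted permutation p = 0.338). Slc7a5 and Slc3a2, the 2 chains of 1 transporter, had an r of 0.63 (rho 0.73, permutation p = 0.0284, adjusted p = 0.357 over all genes against Slc7a5). Over all genes against Slc3a2 the adjusted permutation p was 0.105 for r and 0.0490 for rho, where 137 of 694 genes passed by r. The r of this pair was 0.49 without the 2 hearts farthest in Slc7a5 and 0.75 without the 2 farthest in Slc3a2. It was 0.45 with genotype means taken out, and 0.73 on the ratios, where the median r with Slc7a5 was 0.37. With Slc7a5, 0.0% of all genes passed the adjusted and 13.4% the unadjusted threshold. Slc7a11 and Slc3a2, the chains of the cystine carrier, had an r of 0.03.

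Pycr1 and Slc3a2 lay along the same line of variation as the stromal and the muscle-type genes. Pycr1 had an r of 0.87 with the stromal score (rho 0.90, adjusted permutation p = 0.00815), a test that 21.7% of the other genes passed. With genotype means taken out that r was 0.97, and on the ratios 0.76 (adjusted permutation p = 0.0202). With the muscle-type score, the mean of 4 genes from a list also written after these data had been seen, the r of Pycr1 was −0.97 (rho −0.95, adjusted permutation p = 0.00023), and 24.0% of genes passed. It was −0.75 on the ratios (adjusted permutation p = 0.0122) and −0.95 without the heart of highest stromal score in each genotype. Without those hearts the r of Pycr1 with the stromal score was 0.80 (adjusted permutation p = 0.301) and that of Slc3a2 with the muscle-type score −0.80 (adjusted permutation p = 0.0537), so both calls were lost. Slc3a2 had an r of 0.70 with the stromal score (adjusted permutation p = 0.0560) and −0.90 with the muscle-type score (adjusted permutation p = 0.000987). Without the 2 hearts farthest in the score, Pycr1 kept an r of 0.84 with the stromal and −0.96 with the muscle-type score, and Slc3a2 one of 0.46 and −0.91. On the ratios the r of Slc3a2 was −0.0051 with the stromal and 0.10 with the muscle-type score, so neither relation was seen there. Slc7a5 had an r of 0.32 and −0.57 (adjusted permutation p = 0.485 and 0.144). Atf4, Asns, Slc7a11, Slc3a1 and Slc1a5 had an r between −0.33 and 0.27 with the stromal score and between −0.16 and 0.12 with the muscle-type score.

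**Figure D4:**
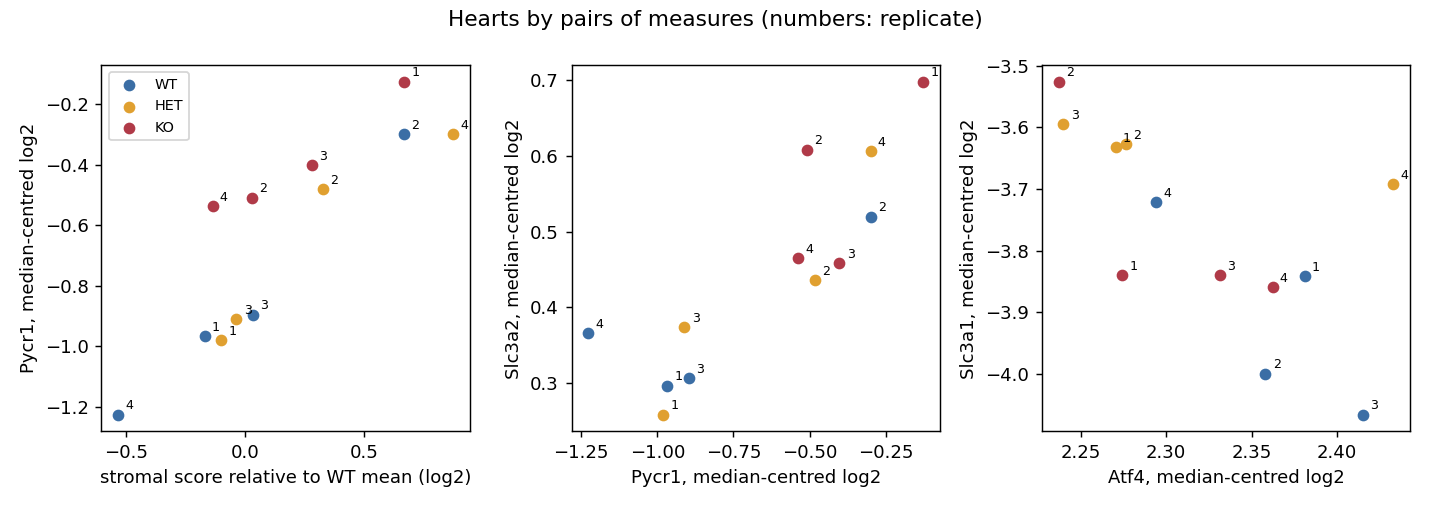
Each point is 1 of the 12 hearts, coloured by genotype and numbered by replicate, on median-centred log2 axes: Pycr1 against the stromal score, Slc3a2 against Pycr1, and Slc3a1 against Atf4. Hearts of all 3 genotypes share the upward slope in the first and second panels (r of 0.87 and 0.85), and the third slopes down (r of −0.68).

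Of the other genes tested in these pathways, 1 was called, Phgdh. Of 39 ATF4 targets listed, 11 were on the panel, 6 of which are described above. The other 5 were Phgdh, Psat1, Psph, Shmt2 and Vegfa, and 0 were called in KO against WT on the ratios, where 1 was higher and 4 were lower with a median of −0.11. Of all genes 25.2% were higher on that scale, and after centring 3 of the 5 were higher, beside 50.2%. Phgdh, which opens the serine synthesis pathway, rose in KO against HET by 0.61 on the log2 scale (SE 0.114, adjusted p = 0.0301 in limma). Against WT its difference was 0.45 (adjusted p = 0.334 in limma), and it was called after centring, at 0.58 (adjusted p = 0.00564 in limma). In KO against WT on the ratios, Psph, the last enzyme of serine synthesis, was at −0.31 (adjusted p = 0.371 in limma). Shmt2, which turns serine into glycine in mitochondria, was at −0.22 (adjusted p = 0.446 in limma). After centring they were at −0.18 and −0.09 (adjusted p = 0.223 and 0.563 in limma). The KO hearts then all lay below the WT hearts for Psph, and for Phgdh they lay above them on both scalings. Of all genes, 8.92% separated in either direction after centring and 3.31% on the ratios. Of 13 genes acting upstream of ATF4 only Ern1, a sensor of unfolded protein, was measured. In KO against WT it was at −0.14 on the ratios, where the median of all genes was −0.13, and at −0.005 after centring. The adjusted p was 0.535 and 0.989 in limma.

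Apart from Asns and Pycr1, a list of enzymes of glutamine, glutamate, proline, aspartate and asparagine was tested, and none was called in KO against WT. Of 14 tested, 12 had a lower mean in KO than WT on the ratios with a median of −0.18, where 74.8% of all genes were lower with a median of −0.13, and 0 were called in limma. After centring 9 of 14 were lower with a median of −0.05, beside 49.8% of all genes. On the ratios Glul, which makes glutamine, was at −0.31, and the aspartate aminotransferases Got1 and Got2 were at −0.38 and −0.37. Each had an adjusted p of 0.371 in limma. After centring Glul, Got1 and Got2 were at −0.17, −0.25 and −0.24 (adjusted p = 0.223, 0.282 and 0.268 in limma). The KO hearts then all lay below the WT hearts for Glul, where 8.92% of all genes separated in either direction. Of 9 tested genes of a list for cystine, glutathione and redox defence, 7 were lower on the ratios, near the panel share of 74.8%. Their median was −0.12, and 0 were called. After centring 5 of 9 were higher, with a median of 0.013. Of the 9, Hmox1, the haem-degrading enzyme, was at 0.35 on the ratios, Gpx4, which detoxifies lipid peroxides, at −0.30, and Txn1, thioredoxin, at −0.21. The adjusted p was 0.371, 0.371 and 0.397 in limma.

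A list for mTORC1, the growth-promoting kinase complex, and its control by amino acids had 9 tested genes. All 9 had lower means in KO than WT on the ratios and 8 after centring, with 0 called in limma. Over all genes 74.8% and 49.8% were lower, and 0.144% and 0.432% were called. Their medians were −0.25 and −0.12. Lamtor2, a part of the lysosomal anchor of mTORC1, was at −0.30, Rptor, its substrate-binding subunit, at −0.28, and Akt1s1, an inhibitor within the complex, at −0.26 on the ratios (adjusted p = 0.371 in limma for each). After centring they were at −0.17, −0.15 and −0.13 (adjusted p = 0.223, 0.255 and 0.268 in limma). The KO hearts all lay below the WT hearts for Lamtor2 on both scalings and for Akt1s1 on the ratios. Of all genes, 3.31% separated in either direction on the ratios and 8.92% after centring.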

How the data were processed

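The deposited values were ratios: the authors divided each probe by Tbp of the same heart, which is 1 in every column. For the panel, background subtraction, control-probe scaling and software, a description is not given in the sources used. RNA was extracted with an RNeasy Micro kit, per the labels' protocols. Each heart's ratios were multiplied by the smallest number that gave whole values throughout, at a tolerance of 0.01. That number was read as the Tbp count, and larger multiples would also give whole values. With a floor of 20 mean counts, 72 probes and Tbp were left out. In R 4.3.3, limma 3.58.1 was fitted to log2((count + 1) / Tbp count) with 1 mean per genotype over 12 hearts and Benjamini-Hochberg adjustment over 695 genes at 0.05. The fit was repeated after each heart was centred on its median. Low genes have understated fold changes on this scale. Hearts were permuted 100000 times for correlations (Python 3.11.15, scipy 1.17.1, with plots in matplotlib 3.10.9), and exactly for group differences.

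The genes and lists were chosen with earlier results of these data known. Named genes are the 8 genes, Slc25a1, called genes that a result turns on, the 5 most and 5 least like Atf4, and per pathway list up to 3 genes with the smallest p in KO against WT or any called. A list of 27 other amino acid transporters held 1 measured gene, Slc7a9, below the floor. Leukocyte genes had 9 tested, endothelial 2 and erythroid 1, and none was called on the ratios. Chi-square per degree of freedom between hearts of a genotype was 2.98 to 32.2 over 18 pairs, so none was a repeat. Intervals on counts cover counting error only, and limma's intervals the spread between hearts. The 768 probes hold no negative control. Promoter stretches are from RefSeq. Only the median-centred fit was tested on simulated data, with noise independent between genes. That covers neither the fit on the ratios nor variation that genes share between hearts. The alternatives covered pseudocount, floor, scaling, variance model, heart weights, replicate block, stromal covariate and single hearts left out.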

Additional observations from a re-analysis of the deposited data

Results flagged for a closer look

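Within each genotype, 3 of 48 sets of 4 hearts held a heart far from the others (8 genes in 3 genotypes on 2 scalings), and chance gives about 1 in 20. Slc7a11 was high in WT replicate 1, at −3.70 (centred log2) where the others were at −4.63 to −4.48, a gap that rests on 32 counts against 19 to 20. Slc3a1 was low in HET replicate 4, at −3.44 (log2 ratio to Tbp) where the other HET hearts were at −3.09 to −3.04. That heart had the highest Slc3a1 count of the HET hearts, 39, and the highest Tbp count, 433. Slc3a1 was high in KO replicate 2, at −3.53 (centred log2) where the other KO hearts were at −3.86 to −3.84. KO replicate 2 was also the highest KO heart for Asns, Slc7a5 and Slc3a2 on the ratios. The cause was not tested.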

How the results depend on the processing

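Over the alternatives, 1 of 546 values of the 8 genes on the ratios was called (Pycr1 in KO against WT with heart weights, 0.37, adjusted p = 0.0467 in limma) and 35 changed sign. After centring 2 of 336 were called, both Pycr1 with the stromal covariate, and 11 changed sign. Genes called in KO against WT numbered 1, and 3 with median centring, 3 with housekeeping centring, 4 with quantile normalization, 2 with trend and robust eBayes and 166 with heart weights. In HET against WT 1 was called, 0 with median or housekeeping centring, 4 with heart weights and 0 to 1 with single hearts left out. In KO against HET 3 were called, 5 with trend and robust eBayes, 7 with heart weights and 1 to 3 with single hearts left out. After centring, the stromal covariate moved the count from 3 to 34 in KO against WT and from 2 to 36 in KO against HET. With Atf4, 0 genes were called after centring and 374 on the ratios, which share the Tbp count.

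Replicate numbers are not shown to pair hearts: same-numbered hearts had a correlation of −0.51 to 0.36, over 0.1 in 5 of 12 pairs, and 3 of 12 hearts correlated best with their own number. With the replicate block the calls in KO against WT after centring went from 3 to 1.

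With quantile normalization Atf4 was 0.013 in KO against WT, 0.0033 in HET against WT and 0.00958 in KO against HET, Slc3a1 −0.066 in KO against WT and Slc3a2 0.0049 in HET against WT. With heart weights Slc7a11 was −0.25 in HET against WT, and in KO against WT Slc7a11 was −0.12, Slc3a1 −0.069 and Slc1a5 −0.084. A pseudocount of 5 gave Slc3a1 −0.0058 in KO against WT. In HET against WT, Slc3a2 was 0.046 with median and 0.0599 with housekeeping centring, and Slc1a5 0.0074 and 0.021. Atf4 in KO against HET was 0.032 with housekeeping centring and 0.000373 with the stromal covariate after centring, where in HET against WT Pycr1 was −0.0073 and Slc3a2 −0.012.

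With single hearts left out, KO against WT ran from −0.11 to 0.14 for Asns, −0.038 to 0.15 for Slc7a5, −0.018 to 0.11 for Slc3a2, −0.10 to 0.12 for Slc3a1 and −0.073 to 0.095 for Slc1a5. HET against WT ran from −0.082 to 0.10 for Slc7a5 and −0.11 to 0.010 for Slc3a2, and KO against HET from −0.071 to 0.089 for Slc7a11 and −0.038 to 0.12 for Slc7a5. After centring, HET against WT ran from −0.016 to 0.10 for Slc3a2 and −0.058 to 0.048 for Slc1a5, and KO against HET from −0.025 to 0.039 for Atf4 and −0.041 to 0.18 for Slc7a11. The r with Atf4 ran from −0.33 to 0.079 for Slc3a2, −0.23 to 0.085 for Slc7a11, −0.068 to 0.24 for Pycr1 and −0.60 to 0.027 for Asns.

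On the ratios the r with Atf4 was 0.46 for Asns, −0.53 for Pycr1, 0.12 for Slc7a11, 0.34 for Slc7a5, 0.17 for Slc3a2, 0.43 for Slc3a1 and 0.65 for Slc1a5, the last called (adjusted permutation p = 0.0401). Slc3a2 gave 0.31 with housekeeping centring, 0.41 with quantile normalization and 0.15 with genotype means taken out, Slc1a5 −0.13 with quantile normalization and Slc7a11 0.13 with genotype means taken out. Slc3a2 on the ratios gave −0.0051 with the stromal score and 0.10 with the muscle-type score. Without the heart of highest stromal score in each genotype, the r of Pycr1 was 0.80 with the stromal score and 0.73 with Slc3a2 (adjusted permutation p = 0.301 and 0.121). The cause of each was not tested. Depth limits Slc7a11 and Slc3a1, whose counting error was 15.2% to 22.9% per heart.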

Other observations

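The genes nearest to Pycr1 and Slc3a2 over the hearts were picked after their values were seen. Pycr1 ran closest with Thbs2, a matrix protein that is itself in the stromal score (r of 0.97), with Rimklb (0.95) and with Cd276, an immune checkpoint protein (0.93). It ran most opposite to Cox5b and Sdhc, subunits of the respiratory chain, and to Ak1, an adenylate kinase, each with r of −0.97. Slc3a2 ran closest with Scd1, a fatty acid desaturase (0.93), Adh1 (0.89) and Ptgs1 (0.86), and most opposite to Sod2, the mitochondrial superoxide dismutase (−0.94), Ak1 (−0.92) and Nme2 (−0.92).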
